A study of Mus musculus with 14 samples.

Results

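The 6 mouse liver tumours that carried a guide RNA against either of 2 parts of one ubiquitin ligase, Keap1 or Cul3, were compared as 1 group with 4 tumours that carried a guide against GFP. These 10 libraries are 10 of the 14 of the series. All 10 tumours were hepatocellular carcinomas driven by MYC, edited with Cas9, and the labels name their cells as hepatocytes. The control group was MYC/sgGFP (4 tumours), and the guide groups were MYC/sgCul3 (3 tumours) and MYC/sgKeap1 (3 tumours). The remaining 4 libraries were 2 tumours with a guide against Nrf2, aimed per the series' design at its ETGE motif, and controls A and B, each labelled a repeat, A of sgGFP tumour 2 and B of sgGFP tumour 4. GFP is not a mouse gene, so its guide serves as a control for cutting reagents without a target in the genome. The sources used here do not give strain, age, the way MYC and Cas9 were delivered or whether tumours came from separate mice. The spread behind every p-value here is that between these libraries, which may be partly technical if tumours of a group share a mouse or a clone.

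KEAP1 is the adaptor that holds the transcription factor NRF2 (gene Nfe2l2), and CUL3 is the scaffold of the ligase that then marks NRF2 for the proteasome. When oxidants or electrophiles modify KEAP1, or when the ligase is lost, NRF2 accumulates and, with a small MAF partner, binds antioxidant response elements near genes for glutathione synthesis, NADPH supply, quinone reduction, conjugation and export. In liver this programme is known for the handling of drugs and bile pigments, and mutations that switch it on recur in hepatocellular carcinoma. CUL3 also serves many adaptors other than KEAP1.

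A gene is called separated here if all 6 guide tumours lay beyond all 4 sgGFP tumours, and its gap is the distance on the log2 scale between the nearest guide tumour and the nearest sgGFP tumour. Of the 13045 genes whose deposited values averaged 10 or more, 669 were separated higher (5.13% of genes tested) and 535 were separated lower (4.1%). A further 51 higher and 125 lower genes were separated but fell below that level. Genes near 0 in the sgGFP tumours, such as Ces2c, Ces1f and Cyp7b1, reached that level only through the guide tumours. Separation describes these 10 libraries and carries no test. The count of separated genes given for any list below is to be read beside these shares of 5.13% and 4.1%. In the test on all genes (limma on log2 of the value plus 1, mean of both guides against sgGFP, Benjamini-Hochberg adjusted p under 0.05), 570 genes rose (4.37%) and 416 fell (3.19%). Of the separated genes, 431 of 669 and 313 of 535 also passed that test in the same direction. Both use the same values, so neither supports the other. The limma counts moved by over 1.5 times without some single libraries. Leaving out sgGFP tumour 2, 3 or 4 gave 378, 257 or 442 higher and 225, 138 or 263 lower genes, of which the 442 stayed within 1.5 times. Leaving out sgCul3 tumour 1, 2 or 3 gave 320, 349 or 882 higher and 214, 254 or 671 lower genes, and leaving out sgKeap1 tumour 3 gave 315 and 232. Levels below are the authors' scaled counts with their added 1 removed, called normalised reads. Changes are log2 fold changes ± SE with limma's adjusted p over all genes (6 guide tumours against 4 sgGFP tumours). Such a p is for the mean of both guides and does not show a change under each. In sgCul3 alone, for example, Mgst1, Gclm, Slc3a2, Akr1c14, Ces1g, Fabp6, Igfbp1 and Egln1 did not pass (limma, adjusted p 0.0752 to 0.205). Gstp1 and Txnip did not pass in sgKeap1 alone (adjusted p 0.0791 and 0.0909). Slc7a11, Cbr3, Srxn1, Nqo1 and Gclc passed in each guide alone.

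Most gaps were narrow and a few were very wide. The median gap was 0.197 in the higher genes and 0.180 in the lower genes. It exceeded 1, a doubling between the nearest tumours of each kind, in 67 and 44 genes, and it exceeded 2 in 24 and 17. The higher genes took up 3.24% to 3.67% of normalised reads in the sgGFP tumours and 7.06% to 8.79% in the guide tumours. The lower genes took up 5.66% to 7.67% in the sgGFP tumours and 1.30% to 4.88% in the guide tumours. Depth was 6333025 to 12008223 reads on genes per library. The library of sgKeap1 tumour 2 stood apart, with 24.5% of its reads on its 10 most abundant genes and 1046700 normalised reads of albumin, Alb (27498 to 162270 in the other 9 libraries). Without that library 752 genes were separated higher and 632 lower, while 400 rose and 301 fell by limma. The guide tumour closest to the controls was most often sgCul3 tumour 3, in 274 of the 669 higher and 196 of the 535 lower genes (44 to 123 and 51 to 78 for each other guide tumour), and without it 1140 were separated higher and 1100 lower.

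Antioxidant response elements share the letters TGACNNNGC. These letters, searched on both strands, were present in 4071 of 32851 RefSeq promoter windows of the mouse (12.39%), each 250 bases before to 50 after a start site on GRCm38.p6. Windows were found for 523 of the 669 higher genes (78.18%) and 383 of the 535 lower genes (71.59%), under the 80% needed, so a comparison of shares between the sets is void. Of the higher genes described further on that had a match, 6 are shown, and others such as Gclm, Slc35d1 and Irs1 are not. The stretches below show the letters, in capitals with up to 20 bases on each side, before a start site of these 6 genes. They are written 5′ to 3′ on the strand of the gene and overlap no GENCODE exon. Pir lay at chrX:164269197-164269245 (+), Prdx1 at chr4:116685446-116685494 (+), Htatip2 at chr7:49759443-49759491 (+), Txnrd1 at chr10:82859094-82859142 (+), Cachd1 at chr4:100776430-100776478 (+) and Abcc4 at chr14:118706220-118706264 (-). The stretches of Htatip2 and Txnrd1 lie inside the annotated span of the gene, before an inner start site. The other 4 lie before the gene.
Pir: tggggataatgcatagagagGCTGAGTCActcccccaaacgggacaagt
Prdx1: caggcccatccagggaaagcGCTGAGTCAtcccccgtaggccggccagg
Htatip2: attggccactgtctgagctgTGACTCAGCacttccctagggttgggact
Txnrd1: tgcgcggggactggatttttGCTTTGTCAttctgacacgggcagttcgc
Cachd1: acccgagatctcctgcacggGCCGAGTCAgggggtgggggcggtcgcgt
Abcc4: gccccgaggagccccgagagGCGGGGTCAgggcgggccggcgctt
Pir and Prdx1 hold the same 9 letters, and Htatip2 holds their reverse complement. The window of Pir held the letters 2 times, and the first match is shown. Of the 12 higher genes with the widest gaps and a mean level of at least 100 (predicted genes and pseudogenes aside), 10 had a window, and the letters were in 1 of them, that of Srxn1. A match is a description, and its absence says only that these letters are not in this window.

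The RNA of the targeted genes does not measure how many alleles were cut. Keap1 was at 599, 582, 707 and 721 normalised reads in the controls (numbers 1 to 4), at 1149.5, 907 and 823 in sgCul3 (numbers 1 to 3) and at 462, 414 and 287 in sgKeap1 (numbers 1 to 3), the order kept below. The 3 sgKeap1 tumours were thus the lowest and the 3 sgCul3 tumours the highest of the 10, and for both guides together the change was -0.11 ± 0.18 (adjusted p 0.714). The difference of sgKeap1 from sgCul3 did not pass over all genes (-1.32, adjusted p 0.0993). With each guide alone against sgGFP, Keap1 changed by -0.77 ± 0.21 in sgKeap1 (limma, adjusted p 0.0485, close to the threshold). In sgCul3 it changed by 0.55 ± 0.21 (adjusted p 0.215). Cul3 was at 1372, 1247, 1202 and 935 in sgGFP, at 163, 426 and 676 in sgCul3 and at 848, 596 and 895 in sgKeap1. All 6 guide tumours lay below the 4 controls, by a gap of 0.06, and the change of -1.16 ± 0.33 did not pass (adjusted p 0.056). With each guide alone, Cul3 changed by -1.70 ± 0.39 in sgCul3 and by -0.62 ± 0.39 in sgKeap1 (limma, adjusted p 0.0509 and 0.313). Nfe2l2 RNA overlapped, at 629 to 1084 in sgGFP and 589 to 1342 in the guide tumours (-0.12 ± 0.25, adjusted p 0.785). Of 14 regulators tested, 1 was separated higher, beside 5.13% of all genes tested. That gene was Sqstm1, which codes for the autophagy receptor p62 that can itself bind KEAP1. It was at 1819, 2327, 1796 and 1816 in sgGFP against 4117, 3324 and 9678 in sgCul3 and 5243, 5157 and 4632 in sgKeap1 (1.39 ± 0.27, adjusted p 0.0122).

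The widest gap of the 669 genes was that of Slc7a11, which codes for the cystine importer that feeds glutathione synthesis. Its level was 4.05, 6.14, 9.74 and 13.4 normalised reads in sgGFP. It was 2976, 983 and 1438 in sgCul3 and 4862, 2568 and 3672 in sgKeap1. Every guide tumour was thus far above every control, with a gap of 6.0 and a change of 7.95 ± 0.35 (adjusted p 7.60e-07). Its heavy chain partner, Slc3a2, spanned 925 to 1474 in sgGFP and 2169 to 6988 in the guide tumours, also without overlap (1.57 ± 0.29, adjusted p 0.0100). Gclc, the catalytic subunit of the ligase that makes the first bond of glutathione, was at 915, 1311, 1296 and 1647 in sgGFP, at 14947, 8051 and 7423 in sgCul3 and at 20938, 15185 and 19098 in sgKeap1. All 6 guide tumours were above the 4 controls and the change was 3.39 ± 0.25 (adjusted p 3.93e-05).

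Of the 14 genes of cystine import and glutathione synthesis tested, 6 were separated higher and 0 lower, and limma called 8 higher. Their median change was 1.26, beside -0.0028 over all genes tested. By limma 0 fell, with 2 lower at an unadjusted p under 0.05, 0 lower by edgeR and 1 lower by DESeq2. Gclm, the regulatory subunit beside Gclc, rose by 1.80 ± 0.27 (adjusted p 0.00359), and its controls (1702 to 2434) came close to sgCul3 tumour 3 at 2954. Gss, the enzyme of the second step, rose by 1.5 ± 0.23 (adjusted p 0.00360). Gsr, which returns oxidised glutathione to the reduced form, was at 1882 to 2318 in sgGFP and at 5734 to 13833 in the guide tumours (2.26 ± 0.22, adjusted p 0.000237).

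**Figure D1:**
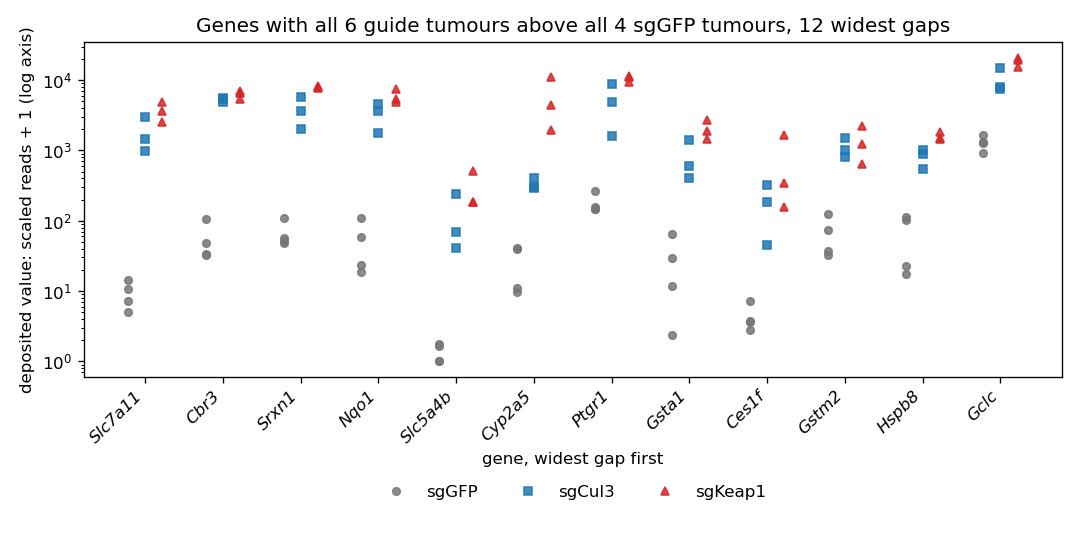
Deposited value (scaled reads plus 1, log axis) of the 12 genes with the widest gaps (mean level at least 100) among genes with all 6 guide tumours above all 4 sgGFP tumours, 1 point per tumour, with sgGFP as grey circles, sgCul3 as blue squares and sgKeap1 as red triangles. In each of the 12 genes no grey circle reaches a coloured point, from Slc7a11 (gap 6.0) to Gclc (gap 2.17), and Cyp2a5 shows the guides apart from each other.

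Cbr3, Srxn1 and Nqo1, enzymes that spend reducing power, had the next widest gaps among genes with a mean level of at least 100. Cbr3, a carbonyl reductase, was at 31.7, 105, 47.8 and 33.1 in sgGFP, at 5575, 4907 and 5433 in sgCul3 and at 6486, 5321 and 7035 in sgKeap1. The 6 guide tumours lay close to one another, with a gap of 5.52 to the highest control (6.84 ± 0.29, adjusted p 7.60e-07). Srxn1, sulfiredoxin, which repairs over-oxidised peroxiredoxins, was at 47.2, 107, 50.5 and 56.4 in sgGFP against 5822, 2038 and 3586 in sgCul3 and 7861, 8317 and 7704 in sgKeap1 (6.37 ± 0.30, adjusted p 9.19e-07). Each sgKeap1 tumour was above each sgCul3 tumour, and all 6 were above the controls. Nqo1, the quinone reductase used most often as a marker of NRF2 activity, was at 17.5, 22.2, 58.5 and 110.1 in sgGFP, 4564, 3609 and 1779.6 in sgCul3 and 4955, 5329 and 7498 in sgKeap1. Its groups did not overlap and the change was 6.65 ± 0.46 (adjusted p 2.94e-05).

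Enzymes that clear peroxides rose in part. Of 27 peroxide, thioredoxin and sulfiredoxin genes tested, 6 were separated higher and 2 lower, and limma called 6 higher and 2 lower, with a median change of 0.44. The lower count was 1 without any 1 of the sgGFP tumours, sgCul3 tumour 1 or sgKeap1 tumours 2 and 3, and 3 without sgCul3 tumour 3. Txnrd1, thioredoxin reductase, was at 1706, 1544, 1531 and 1232 in sgGFP, at 7596, 4939 and 7553 in sgCul3 and at 7572, 6071 and 6847 in sgKeap1. The 2 guide groups overlapped, both clear of the controls (2.16 ± 0.18, adjusted p 9.54e-05). Its substrate Txn1 (1.35 ± 0.23, adjusted p 0.00671), the peroxiredoxin Prdx1 (1.18 ± 0.20, adjusted p 0.00753) and catalase, Cat (1.88 ± 0.31, adjusted p 0.00555), rose less. Cat was at 49304 reads in sgKeap1 tumour 2 and 7756 to 20151 in the other guide tumours. In sgCul3 alone against sgGFP, Prdx1 and Cat did not pass (limma, adjusted p 0.0787 and 0.114). Gpx2, a glutathione peroxidase of gut epithelium, was at 0, 1.53, 0 and 0 in sgGFP and at 434, 176 and 5.47 in sgCul3 and 861, 191 and 522 in sgKeap1. With 2 reads in all sgGFP tumours together, its ratio was 921 (exact 95% interval 255 to 7613, for counting error only), and its fitted change of 6.38 ± 0.94 became 7.25 without sgCul3 tumour 3 and 5.79 without sgCul3 tumour 1. Txnip, the inhibitor of thioredoxin, went the other way. It was at 2989, 2551, 4766 and 3575 in sgGFP, at 778, 865 and 1224 in sgCul3 and at 1582, 1974 and 2532 in sgKeap1, so the nearest tumours almost touched (-1.30 ± 0.22, adjusted p 0.00717).

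Of the 43 lists, glutathione S-transferases had the largest share of separated higher genes. These enzymes join glutathione to electrophiles. Of 23 tested, 13 were separated higher and 0 lower, and limma called 14 higher (10 to 14 with any 1 library left out), with a median change of 1.68. By limma 0 fell, and 0 were lower at an unadjusted p under 0.05, by edgeR or by DESeq2. Gstm1, a mu class enzyme, was at 1405, 2024, 6458 and 15027 in sgGFP, 54764, 30668 and 30923 in sgCul3 and 62844, 29723 and 38879 in sgKeap1. On the log2 scale the sgGFP tumours spread over a wider range than the guide tumours. The change of 3.27 ± 0.59 (adjusted p 0.00892) was 3.90 without sgGFP tumour 4. Gstm2 (4.28 ± 0.43, adjusted p 0.000311), Gstm4 (3.53 ± 0.29, adjusted p 7.47e-05) and Gsta2 (3.90 ± 0.41, adjusted p 0.000437) rose with gaps above 1.5. Gsta1 was at 1.35, 10.7, 28.3 and 64.4 in sgGFP and at 400.3 to 2708 in the guide tumours. Its change of 6.10 ± 0.70 (adjusted p 0.000752) was 5.31 without sgGFP tumour 1 and 6.75 without sgGFP tumour 4. Genes of these clusters are near copies, so reads may be split between neighbours.

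Gstp1 and Gstp2, adjacent genes of the pi class, differed in level and in pattern. Gstp1 ranged from 1113 to 1736 in sgGFP, from 4959 to 7678 in sgCul3 and from 1830.4 to 3897 in sgKeap1, so the sgKeap1 tumours lay nearer to the controls (1.41 ± 0.24, adjusted p 0.00720). Gstp2 ranged from 0.886 to 7.16 in sgGFP, from 30.1 to 75.1 in sgCul3 and from 60.8 to 187 in sgKeap1 (3.82 ± 0.46, adjusted p 0.000933). Of the microsomal family, Mgst3 rose by 3.02 ± 0.43 (adjusted p 0.00270), with sgCul3 tumour 3 (711) close to the highest control (617). Mgst2 was at 107, 149.6, 6.20 and 8.05 in sgGFP and at 381 to 1335 in the guide tumours. Its controls thus fell into 2 high and 2 low tumours, and the change of 4.71 ± 0.79 (adjusted p 0.00647) was 5.43, 4.03 and 4.12 without sgGFP tumours 2, 3 and 4. Mgst1 ranged from 3555 to 5769 in sgGFP and from 7092 to 75860 in the guide tumours, and its adjusted p of 0.0190 was 0.0694 without sgGFP tumour 3.

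**Figure D2:**
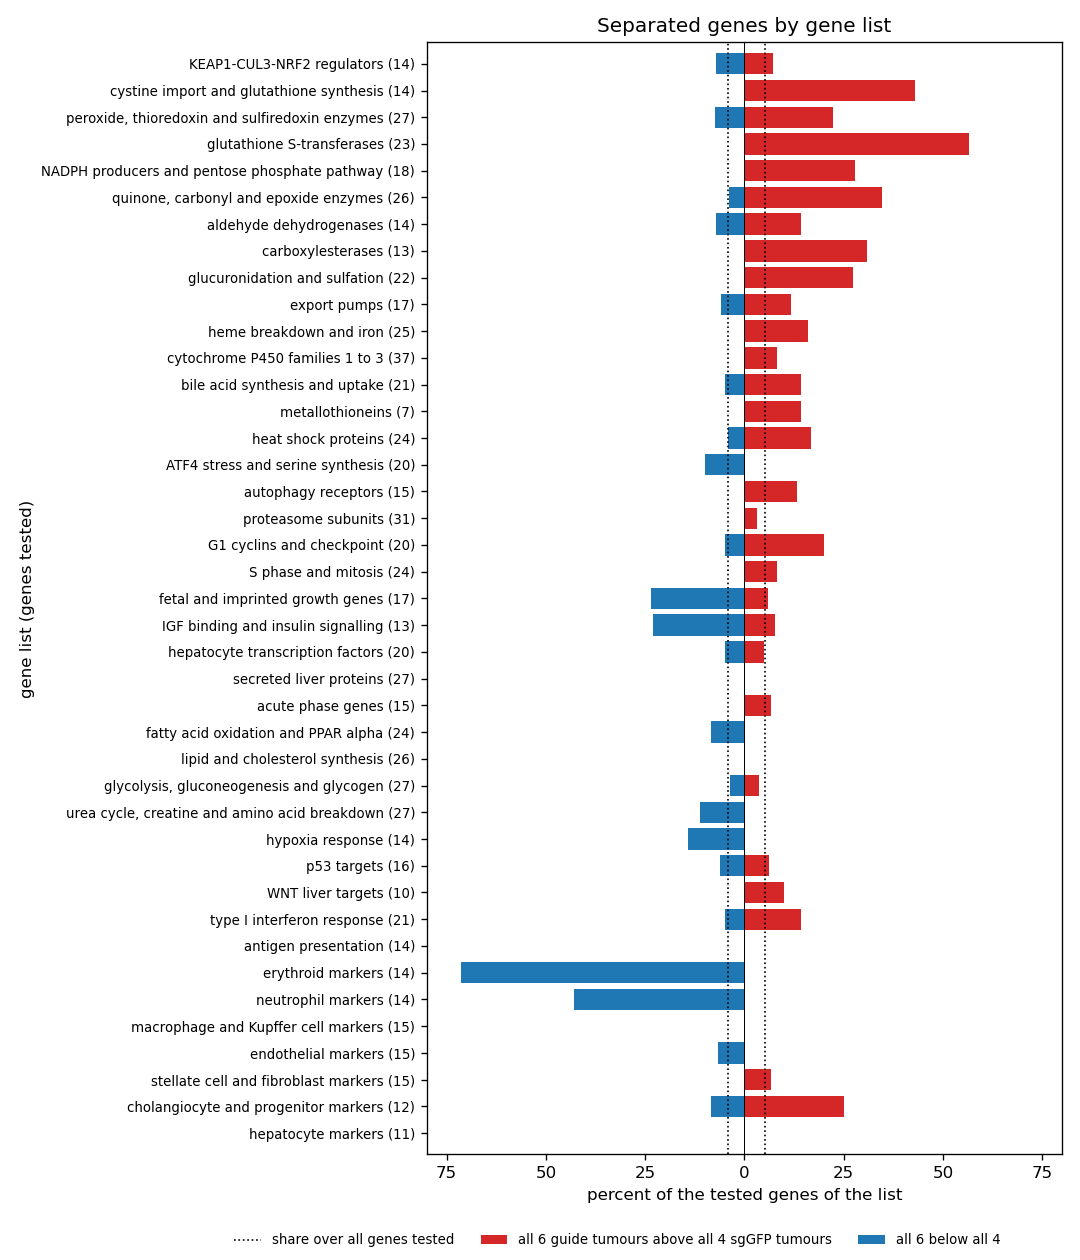
Share of each gene list's tested genes that were separated, in percent, to the right for all 6 guide tumours above all 4 sgGFP tumours and to the left for all 6 below, with dotted lines at the share over all genes tested (5.13% and 4.1%) and the number tested in brackets. Glutathione S-transferases (13 of 23) and cystine import and glutathione synthesis (6 of 14) reach farthest to the right, erythroid markers (10 of 14) and neutrophil markers (6 of 14) farthest to the left.

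NADPH producers followed in part. Of 18 genes tested, 5 were separated higher and 0 lower, and limma called 3 higher and 0 lower (unadjusted p under 0.05 in 6 and 2, edgeR 4 and 0, DESeq2 6 and 0). Pgd, the second NADPH-forming step of the pentose phosphate pathway, was at 1776, 1157, 1716 and 1414 in sgGFP, at 8128, 4342 and 6132 in sgCul3 and at 9279, 4713 and 6649 in sgKeap1. The guide tumours shared 1 range, above all controls (2.08 ± 0.25, adjusted p 0.000914). Me1, malic enzyme, rose by 2.22 ± 0.30 (adjusted p 0.00195) and Rpia, ribose phosphate isomerase, by 0.98 ± 0.17 (adjusted p 0.00753). Rpe and Tkt, of the same pathway, were separated higher with changes of 0.92 ± 0.26 and 0.75 ± 0.22 that did not pass (adjusted p 0.0571 and 0.0594). G6pdx, the entry enzyme, ranged from 774 to 1336 in sgGFP and from 798 to 2314 in the guide tumours, and Taldo1 from 1488 to 2538 and from 1830.4 to 3827, so both overlapped (adjusted p 0.485 and 0.254).

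Quinone, carbonyl and epoxide enzymes numbered 26, of which 9 were separated higher and 1 lower, and limma called 11 higher and 1 lower. The lower count was 0 without any 1 of sgGFP tumours 3 and 4, sgCul3 tumour 1 or sgKeap1 tumours 2 and 3, and 2 without sgGFP tumour 1 or sgCul3 tumour 3. Ptgr1, which reduces leukotrienes, prostaglandins and reactive alkenals, was at 147, 260.1, 145 and 156 in sgGFP, at 8827, 4848 and 1599 in sgCul3 and at 9484, 11337 and 11167 in sgKeap1 (5.25 ± 0.39, adjusted p 3.95e-05). Its lowest guide tumour was sgCul3 tumour 3. Cbr1, the neighbour of Cbr3 on chromosome 16, was at 437, 1323, 1368 and 2553 in sgGFP and at 8434 to 16869 in the guide tumours (3.34 ± 0.40, adjusted p 0.000931). Ephx1, the microsomal epoxide hydrolase, rose by 2.30 ± 0.31 (adjusted p 0.00194), Htatip2 by 2.17 ± 0.29 (adjusted p 0.00176), and the aldo-keto reductases Akr1c19 by 2.62 ± 0.21 (adjusted p 7.47e-05) and Akr1c14 by 2.78 ± 0.48 (adjusted p 0.00720). Pir, which codes for the iron-binding protein pirin, was at 49.3 to 200.5 in sgGFP and at 778 to 1040.4 in the guide tumours (3.05 ± 0.34, adjusted p 0.000610). Of 14 aldehyde dehydrogenases, 2 were separated higher and 1 lower, beside 5.13% and 4.1% of all genes tested. Aldh1a1, which oxidises retinal, rose by 1.81 ± 0.32 (adjusted p 0.00754).

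Of 22 genes of glucuronidation and sulfation tested, 6 were separated higher and 0 lower, and limma called 7 higher and 0 lower (10 and 0 at an unadjusted p under 0.05, 7 and 0 by edgeR, 10 and 0 by DESeq2), with a median change of 1.33. Ugp2 and Ugdh make the sugar donor UDP-glucuronate. Ugdh was at 964, 1046, 1415 and 1612 in sgGFP, at 7244, 5484 and 9224 in sgCul3 and at 10757, 14757 and 10648 in sgKeap1, each sgKeap1 tumour above each sgCul3 tumour (2.90 ± 0.22, adjusted p 4.73e-05). Ugp2 rose by 2.70 ± 0.24 (adjusted p 0.000114), and Slc35d1, which carries the donor into the endoplasmic reticulum, by 1.44 ± 0.21 (adjusted p 0.00270). The transferases Ugt2b35 (2.89 ± 0.36, adjusted p 0.00116) and Ugt2b34 (1.97 ± 0.29, adjusted p 0.00316) rose as well, and both are near copies of other family members.

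Carboxylesterases, which hydrolyse lipids and ester drugs, had 4 of 13 genes separated higher and 0 lower. Ces1f was at 2.70, 6.14, 2.66 and 1.79 in sgGFP, at 323, 186 and 44.6 in sgCul3 and at 344, 1646 and 154 in sgKeap1. Its guide tumours spread widely, from 44.6 to 1646, all above the controls (5.63 ± 0.67, adjusted p 0.000925). Ces1b rose by 3.51 ± 0.52 (adjusted p 0.00318) and Ces2c, at 0 to 1.77 against 12.4 to 36.8, by 2.68 ± 0.41 (adjusted p 0.00370). Ces2c had 6 reads in all sgGFP tumours together and met the filter only through the guide tumours, so its p is a description. Ces1g, at 33.1 to 315 in sgGFP and 461 to 1155 in the guide tumours, had a change of 2.46 ± 0.51 (adjusted p 0.0169) that was 1.79 without sgGFP tumour 1. Among 17 export pumps, 2 were separated higher and 1 lower, beside 5.13% and 4.1% of all genes tested. The 2 higher genes were MRP-type pumps of conjugates. Abcc3 was at 185, 134, 94.8 and 72.5 in sgGFP and at 193 to 1546 in the guide tumours, with sgCul3 tumour 3 at the lower end (2.67 ± 0.39, adjusted p 0.00294). Abcc4 was at 282, 61.4, 45.2 and 34.9 in sgGFP, at 1047, 459 and 648 in sgCul3 and at 1826, 1908 and 1378 in sgKeap1. Its change of 3.84 ± 0.49 (adjusted p 0.00135) was 4.48 without sgGFP tumour 1, the highest control.

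Heme breakdown and iron had 4 of 25 genes separated higher and 0 lower, and limma called 5 higher (3 without any 1 of sgGFP tumours 2, 3 and 4, sgCul3 tumour 2 or sgKeap1 tumour 3). Blvrb, biliverdin reductase B, was at 349, 431, 300.2 and 395 in sgGFP, at 3167, 2281 and 741 in sgCul3 and at 3816, 3973 and 3528 in sgKeap1 (2.81 ± 0.33, adjusted p 0.000915). Slc48a1, a heme transporter, rose by 2.30 ± 0.28 (adjusted p 0.00103). Ferritin, which stores iron, was separated in both of its chains. The light chain Ftl1 ranged from 3393 to 6993 in sgGFP and from 10013 to 16983 in the guide tumours (1.52 ± 0.25, adjusted p 0.00647). The heavy chain Fth1 ranged from 11103 to 18224 and from 29088 to 38742 (1.04 ± 0.26, adjusted p 0.0333), and without any 1 library other than sgCul3 tumour 3 and sgKeap1 tumour 2 its adjusted p was 0.0521 to 0.0970. Hmox1, heme oxygenase and a well known NRF2 target, was at 1993, 1648, 244 and 129.8 in sgGFP and at 279.7 to 781 in the guide tumours. All 6 guide tumours lay inside the range of the controls, and the change was -0.21 ± 0.71 (adjusted p 0.873), or 0.39 without sgGFP tumour 1 and 0.30 without sgGFP tumour 2.

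Cytochromes P450 of families 1 to 3 had 3 of 37 genes separated higher and 0 lower, beside 5.13% and 4.1% of all genes tested. Limma called 4 higher, and 2 without any 1 of sgGFP tumours 2 and 3 or sgCul3 tumour 2. Cyp2a5, the coumarin hydroxylase, was at 8.77, 9.97, 38.1 and 40.3 in sgGFP, at 299.8, 403 and 295 in sgCul3 and at 4388, 11098 and 1936 in sgKeap1. The 3 groups formed 3 levels without overlap (5.83 ± 0.52, adjusted p 0.000125). Cyp1a1 was at 0, 0, 0.886 and 0 in sgGFP, at 9.67, 8.86 and 1.56 in sgCul3 and at 21.2, 79.1 and 36.1 in sgKeap1. With 1 read in all sgGFP tumours together, its ratio was 99.0 (exact 95% interval 17.4 to 3945, for counting error only).

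Of 21 genes of bile acid synthesis and uptake tested, 3 were separated higher and 1 lower, beside 5.13% and 4.1% of all genes tested. With counts this small, single genes are described. Cyp7b1, of the acidic pathway of synthesis, was at 2.02, 0, 3.54 and 1.79 in sgGFP, at 111, 147 and 79.8 in sgCul3 and at 141, 251 and 232 in sgKeap1 (5.38 ± 0.35, adjusted p 1.86e-05). Cyp8b1, which directs synthesis to cholic acid, was at 7.16 to 11.5 in sgGFP and at 64.9 to 349 in the guide tumours (3.54 ± 0.43, adjusted p 0.000983). Cyp7a1, the rate-limiting enzyme, overlapped at 2.70 to 31.9 and 12.3 to 103 (1.47 ± 0.68, adjusted p 0.191). Fabp6, the bile acid binding protein of the ileum, was at 1087, 5110.1, 2246 and 2491 in sgGFP, at 152, 262 and 1002 in sgCul3 and at 98.1, 10.1 and 114 in sgKeap1. It was the separated lower gene of this list, with sgCul3 tumour 3 near the lowest control (-4.14 ± 0.71, adjusted p 0.00720).

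Several wide gaps belonged to genes outside these lists or to single members of others. Slc5a4b, of the sodium and sugar cotransporter family, was at 0.675, 0.767, 0 and 0 in sgGFP, at 236, 68.2 and 39.9 in sgCul3 and at 184, 507 and 183 in sgKeap1. From 2 reads in the sgGFP tumours its ratio was 409 (exact 95% interval 113 to 3383, for counting error only). Hspb8, a small heat shock protein of chaperone-assisted autophagy, was at 16.2, 21.5, 100.1 and 111 in sgGFP and at 538 to 1816 in the guide tumours (4.57 ± 0.50, adjusted p 0.000610). Mt3, the metallothionein known from brain, was at 4.72, 0.767, 0.886 and 3.58 in sgGFP, at 245, 65.6 and 7.82 in sgCul3 and at 1509, 879.7 and 527 in sgKeap1. Its change of 5.73 ± 0.74 (adjusted p 0.00137) was 6.35 without sgCul3 tumour 3, and it was the 1 of 7 metallothioneins separated higher. Cachd1, at 0.895 to 6.07 in sgGFP, was at 84.3, 33.7 and 30.5 in sgCul3 and at 363, 259 and 310.2 in sgKeap1 (4.69 ± 0.38, adjusted p 7.47e-05). Ddit4l, related to an inhibitor of mTORC1, was at 4.43 to 8.05 in sgGFP and at 62.0 to 160.3 in the guide tumours (3.78 ± 0.33, adjusted p 9.83e-05). Mx1, an interferon-induced antiviral GTPase, was at 5.31 to 25.3 and at 54.0 to 474 (4.33 ± 0.58, adjusted p 0.00176), as 1 of 3 among 21 type I interferon genes separated higher. Creg1, a secreted lysosomal glycoprotein, rose by 2.0 ± 0.27 (adjusted p 0.00187).

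Of 20 G1 cyclin and checkpoint genes, 4 were separated higher and 1 lower, beside 5.13% and 4.1% of all genes tested. Ccnd1, cyclin D1, was at 44.5, 34.5, 62.9 and 63.5 in sgGFP, at 381, 259 and 1656 in sgCul3 and at 896, 1654 and 915 in sgKeap1 (3.91 ± 0.45, adjusted p 0.000795). Cdkn2a, whose products p16 and ARF restrain the cell cycle, was at 4.72, 5.37, 3.54 and 8.95 in sgGFP, at 155, 38.1 and 41.4 in sgCul3 and at 51.5, 231 and 164 in sgKeap1 (3.62 ± 0.51, adjusted p 0.00231). Ccnd1 and Cdkn2a were thus both higher in all 6 guide tumours. The values are per gene, so the RNAs for p16 and ARF cannot be told apart. Mki67, a marker of cycling cells, overlapped at 1504 to 2324 and 503 to 1829 (-0.60 ± 0.25, adjusted p 0.156). Sesn1, a stress-induced inhibitor of mTORC1, fell by 1.15 ± 0.22 on the log2 scale (adjusted p 0.0108). Of 31 proteasome subunits, 1 was separated higher and limma called 0 in either direction, with 5 higher and 0 lower at an unadjusted p under 0.05, 0 by edgeR and 1 higher by DESeq2.

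On the lower side the widest gap among genes with a mean level of at least 100 was that of Grb10, an imprinted adaptor that restrains insulin and IGF signalling. It was at 3494, 2639.8, 7358 and 3911 in sgGFP, at 178, 199 and 77.4 in sgCul3 and at 264, 243 and 269.8 in sgKeap1. The gap was 3.28, and the change was -4.39 ± 0.31 (adjusted p 3.51e-05). Sall4, an oncofetal transcription factor, was at 206, 80.6, 196 and 139.6 in sgGFP, at 0, 2.66 and 5.47 in sgCul3 and at 4.90, 0 and 1.44 in sgKeap1 (-5.26 ± 0.50, adjusted p 0.000219). Igfbp1, a secreted IGF binding protein, ranged from 5529 to 15284 in sgGFP and from 245 to 4978 in the guide tumours. Its change was -2.99 ± 0.60 (adjusted p 0.0145, and 0.0577 without sgGFP tumour 3). Irs1, the insulin receptor substrate, was separated on the other side, at 99.0 to 213 against 321 to 793 (1.76 ± 0.26, adjusted p 0.00303).

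**Figure D3:**
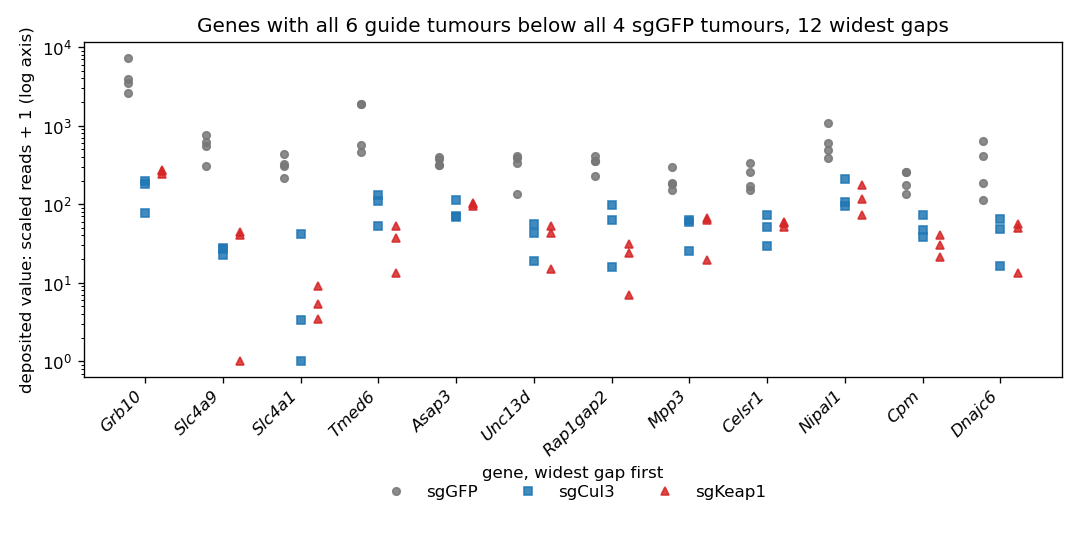
Deposited value (scaled reads plus 1, log axis) of the 12 genes with the widest gaps (mean level at least 100) among genes with all 6 guide tumours below all 4 sgGFP tumours, 1 point per tumour, with sgGFP as grey circles, sgCul3 as blue squares and sgKeap1 as red triangles. Grb10 (gap 3.28) stands out by its level in sgGFP, and for Slc4a9 one sgKeap1 tumour had no reads, which the added 1 places at 1.

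Of 17 fetal and imprinted growth genes, 4 were separated lower and 1 higher, and limma called 3 lower and 0 higher (5 and 1 at an unadjusted p under 0.05, 3 and 0 by edgeR, 5 and 1 by DESeq2). H19, the imprinted fetal RNA, had the most reads of all separated lower genes. It was at 258880, 233830, 343890 and 251390 in sgGFP, at 130570, 85102 and 220620 in sgCul3 and at 137250, 23283 and 84368 in sgKeap1. sgCul3 tumour 3 came within 0.08 log2 units of the lowest control, and the change of -1.53 ± 0.60 did not pass (adjusted p 0.136). Afp, alpha-fetoprotein, overlapped at 25446 to 33991 and 15520 to 33968 (adjusted p 0.361).

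Next by gap at that level came Slc4a9, ahead of the red cell gene Slc4a1, which is described with the erythroid markers. Slc4a9, an anion exchanger, was at 544, 309, 767 and 618 in sgGFP, at 26.3, 26.6 and 21.9 in sgCul3 and at 40.0, 0 and 43.3 in sgKeap1, and its change of -4.70 ± 0.75 (adjusted p 0.00494) was -3.96 without sgKeap1 tumour 2. Tmed6, of the p24 family of cargo receptors, was at 1907, 1876, 562 and 466 in sgGFP and at 12.2 to 128 in the guide tumours (-4.21 ± 0.51, adjusted p 0.00103). Asap3, an ARF GTPase activator, was at 311 to 396 and 67.7 to 113 (-1.93 ± 0.20, adjusted p 0.000419). Unc13d, needed for granule release, fell by 3.05 ± 0.45 on the log2 scale (adjusted p 0.00323). Rap1gap2, a RAP1 GTPase activator of platelets, was at 229 to 409 in sgGFP and at 6.08 to 96.6 in the guide tumours (-3.47 ± 0.52, adjusted p 0.00316). Mpp3, Celsr1, Nipal1, Cpm and Dnajc6 fell with log2 changes of -2.13, -2.05, -2.27, -2.33 and -2.92 (SE 0.40, 0.31, 0.35, 0.30 and 0.59, adjusted p 0.0108, 0.00342, 0.00370, 0.00133 and 0.0145). Celsr1 codes for a planar polarity cadherin, Nipal1 for a magnesium transporter, Cpm for a membrane carboxypeptidase and Dnajc6 for auxilin, which uncoats clathrin vesicles.

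Some metabolic genes were separated lower: 3 of 27 for the urea cycle, creatine and amino acid breakdown and 2 of 24 for fatty acid oxidation. For the hypoxia response 2 of 14 were, beside 4.1% of all genes tested. In these 3 lists 0 were separated higher. In the same order, limma called 3, 5 and 2 lower and 0, 1 and 0 higher. The counts are small, so the genes below are described singly. Gatm, which starts creatine synthesis, was at 649.7, 2029, 2781 and 800.1 in sgGFP, at 33.2, 87.7 and 26.6 in sgCul3 and at 423, 93.2 and 378 in sgKeap1 (-3.63 ± 0.55, adjusted p 0.00344). Got1, the cytosolic aspartate transaminase, was at 1354 to 2949 and at 525 to 956 (-1.38 ± 0.25, adjusted p 0.00916). Cpt1a, the gate of mitochondrial fatty acid oxidation, was at 4417, 3413, 2594 and 1571 in sgGFP, at 591, 989 and 1306 in sgCul3 and at 1065, 1210.2 and 915 in sgKeap1 (-1.51 ± 0.30, adjusted p 0.0133). Egln1, the oxygen sensor PHD2, fell by 1.59 ± 0.31 (adjusted p 0.0126), and Angptl4, a secreted inhibitor of lipoprotein lipase, by 1.14 ± 0.19 (adjusted p 0.00551), both on the log2 scale.

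Markers of blood cells formed the largest share of lower genes on any list. In bulk tumours, fewer cells of a type and less RNA per cell cannot be told apart. Of 14 erythroid markers, 10 were separated lower and 0 higher, limma called 10 lower, and the median change was -3.02. Their summed level was 5260 to 15264 in sgGFP, 425 to 11340 in sgCul3 and 1974 to 2185 in sgKeap1, with sgCul3 tumour 2 at the top of the guide tumours and none of the 14 genes at 0 throughout. Slc4a1, the band 3 anion exchanger of red cells, was at 432, 328, 306 and 214 in sgGFP, at 0, 40.8 and 2.35 in sgCul3 and at 2.45, 8.11 and 4.33 in sgKeap1. Its change of -5.51 ± 0.70 (adjusted p 0.00133) was -6.15 without sgCul3 tumour 2. Rhag, the Rh-associated glycoprotein, was at 51.3, 60.6, 60.2 and 31.3 in sgGFP and had 1 read in all guide tumours together, a ratio of sgGFP over guide tumours of 284 (exact 95% interval 50.5 to 11264, for counting error only). Alas2, which starts heme synthesis in red cells, fell by 3.12 ± 0.60 on the log2 scale (adjusted p 0.0122).

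Of 14 neutrophil markers, 6 were separated lower, and limma called 10 lower with a median change of -2.69. That count was 4 without sgGFP tumour 2, 5 without sgGFP tumour 1 or 4 or sgCul3 tumour 1, and 6 without sgKeap1 tumour 2 or 3. Mpo, myeloperoxidase, was at 72.9, 226, 52.3 and 97.6 in sgGFP, at 0, 38.1 and 3.13 in sgCul3 and at 0.817, 2.03 and 2.89 in sgKeap1. Its change of -4.20 ± 0.74 (adjusted p 0.00773) was -4.81 without sgCul3 tumour 2. Elane, neutrophil elastase, fell by 2.91 ± 0.51 on the log2 scale (adjusted p 0.00753). The part that these cells had in the other lower genes was not tested.

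**Figure D4:**
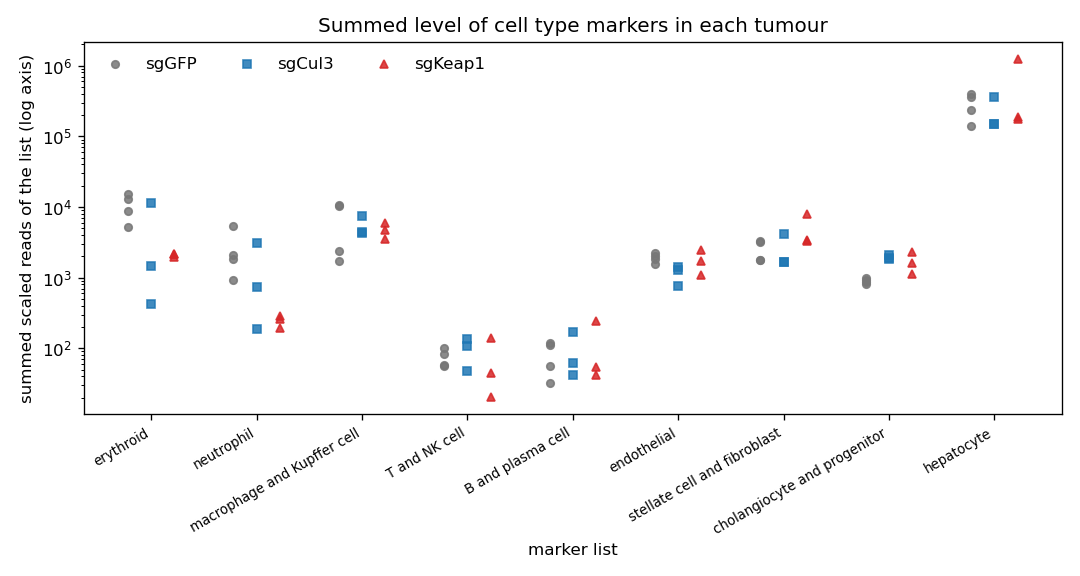
Summed normalised reads of each marker list (log axis) in each of the 10 tumours, with sgGFP as grey circles, sgCul3 as blue squares and sgKeap1 as red triangles. Erythroid sums reach 5260 to 15264 in sgGFP and 425 to 11340 in the guide tumours, and hepatocyte sums overlap apart from sgKeap1 tumour 2. Cholangiocyte and progenitor sums lie higher in all 6 guide tumours, though only 6 of the 12 genes tested had a change above 0.

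Of 15 macrophage and Kupffer cell markers, 0 were separated and limma called 0 (0 at an unadjusted p under 0.05, by edgeR and by DESeq2 in either direction). Summed endothelial markers were at 1576.5 to 2212.5 in sgGFP and 756 to 2461 in the guide tumours, with 1 of 15 separated lower and 3 called lower by limma (5 lower at an unadjusted p under 0.05, 3 by edgeR, 5 by DESeq2). That count of 3 was 0 without sgGFP tumour 3 and 1 without sgGFP tumour 1 or 2 or sgKeap1 tumour 3. Of 11 hepatocyte markers, 0 were separated and limma called 0 (0 higher and 2 lower at an unadjusted p under 0.05, 0 by edgeR, 1 lower by DESeq2), and their sum was 140790 to 398480 in sgGFP and 148510 to 1228800 in the guide tumours. Libraries of all 3 groups thus carried the hepatocyte markers that the labels call for. Cholangiocyte and progenitor markers had 3 of 12 separated higher (Tspan8, Spp1 and Ddit4l) and 1 lower, and only 6 of the 12 had a change above 0. Their sum was 821 to 992 in sgGFP and 1114 to 2302 in the guide tumours. That sum includes the 3 separated higher genes, so it is no separate result for the list. Ddit4l, described above as related to an inhibitor of mTORC1, is on this list, which was chosen with earlier results of these data known. The count of 3 is thus a description of the list and no evidence on these cells. Tspan8, a tetraspanin, was at 20.2, 23.0, 9.74 and 5.37 in sgGFP, at 381, 191 and 1256 in sgCul3 and at 134, 64.9 and 159 in sgKeap1 (3.94 ± 0.53, adjusted p 0.00191). Spp1, osteopontin, was at 64.4 to 164 and at 210.3 to 1106 (2.42 ± 0.50, adjusted p 0.0157). Cd24a, of the same list, was the member separated lower, at 105 to 229 and 6.26 to 50.5 (-2.81 ± 0.49, adjusted p 0.00753).

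Separation from the controls does not use the size of the difference between the guides. It does leave out genes that 1 guide kept at control level. Rec8, for example, had means of 29.3 in sgGFP, 26.1 in sgCul3 and 270 in sgKeap1. It was called between the guides and was not separated. Counts of called genes among the separated are thus limited by the rule and do not show that the guides agree. Over all genes tested, limma called 4 higher (0.0307%) and 4 lower (0.0307%) in sgKeap1 than in sgCul3. Without sgKeap1 tumour 3 both counts were 0, and without sgCul3 tumour 1 or sgKeap1 tumour 1 that of higher genes was 0. Of the 669 separated higher genes 0 were called, with 97 at an unadjusted p under 0.05 (14.5%, beside 10.1% of all genes tested). Of the 535 separated lower genes 1 was called, with 31 at an unadjusted p under 0.05 (5.79%). The called gene was Map2, which codes for a neuronal microtubule protein. Map2 was at 459, 299, 683 and 503 in sgGFP, at 218, 259.7 and 102 in sgCul3 and at 17.2, 16.2 and 23.1 in sgKeap1. The sgCul3 tumours lay between the controls and the sgKeap1 tumours, and sgKeap1 was lower than sgCul3 by -3.14 ± 0.39 (adjusted p 0.0147). The mean of sgKeap1 lay beyond that of sgCul3, seen from the controls, in 464 of the 669 higher genes (69.4%) and in 341 of the 535 lower genes (63.7%). Over all genes tested sgKeap1 was above sgCul3 in 49.83% and below it in 50.17%. The median difference was 0.18 in the higher genes and -0.11 in the lower genes, beside -0.0015 over all genes. When libraries were scaled to equal totals, the median difference over all genes was -0.23, so these small medians depend on the scaling.

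Intervals of the guide difference show how much it could be at this sample size. For Cbr3 the difference sgKeap1 minus sgCul3 was 0.24 (95% interval -0.58 to 1.05), for Nqo1 0.92 (-0.37 to 2.20) and for Gclc 0.92 (0.23 to 1.61), with adjusted p of 0.823, 0.571 and 0.434. For Txnrd1 it was 0.05 (-0.46 to 0.56). Cyp2a5, Cachd1, Gstp1 and Tspan8 were picked from the separated genes for their guide difference, so their values are a description. Cyp2a5 and Cachd1 had intervals far above 0, at 3.78 (2.33 to 5.23) and 2.74 (1.68 to 3.80), with an adjusted p of 0.0993 each. Gstp1 and Tspan8 pointed the other way, at -1.07 (-1.75 to -0.40) and -2.0 (-3.48 to -0.51), and neither passed over all genes (adjusted p 0.373 and 0.434).

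**Figure D5:**
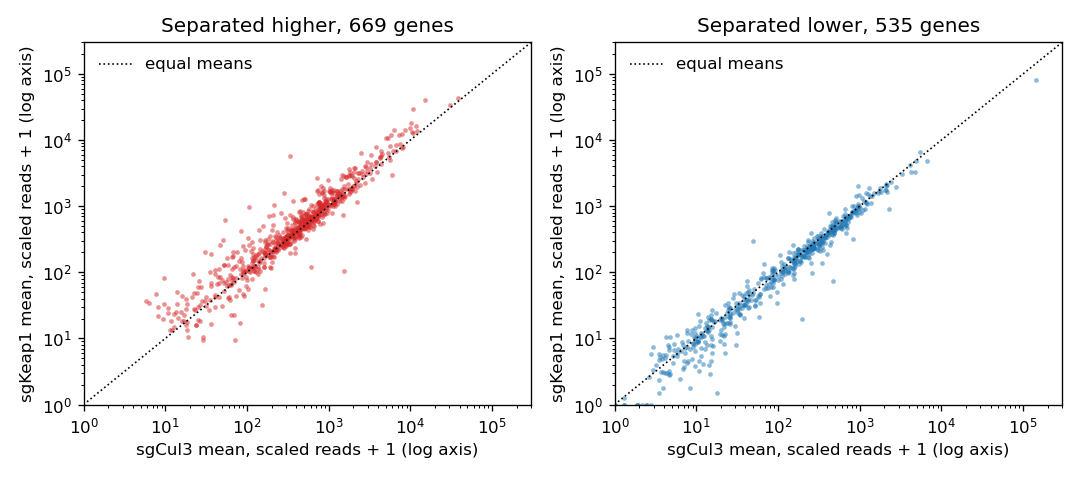
Mean of the 3 sgKeap1 tumours against mean of the 3 sgCul3 tumours (scaled reads plus 1, log axes) for each of the 669 separated higher genes (left, red) and the 535 separated lower genes (right, blue), with a dotted line at equal means. Of the higher genes 464 lie above the line, and of the lower genes 341 lie below it.

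The sgNrf2 tumours carried the guide aimed, per the series' design, at the ETGE motif of Nrf2, and are not read here as loss of NRF2. Their NRF2 protein was not measured. Nfe2l2 RNA was at 1486 and 1615 in sgNrf2 A and B and at 1844 and 1397 in controls A and B (-0.05, limma, adjusted p 0.893). Against controls A and B in the second table, limma called 266 genes higher (1.9%) and 351 lower (2.51%) in sgNrf2. Controls A and B are repeats of 2 of the sgGFP tumours, so the comparisons share controls and each is given with its own values. Slc7a11 was 8.81 higher in sgNrf2 (adjusted p 0.0167), beside 7.38 in sgCul3 and 8.53 in sgKeap1. Srxn1 was 6.54 higher (adjusted p 0.0115), Cbr3 6.77 (adjusted p 0.0230), Nqo1 5.47 (adjusted p 0.0408) and Gclc 3.34 (adjusted p 0.0338). Sall4 was at -8.07 (adjusted p 0.0237), with 0 reads in both sgNrf2 tumours, so the size of its change depends on the added 1. Fabp6 was at -8.00 (adjusted p 0.0167). The fit added 1 in both tables, but first-table values already held the authors' added 1. Changes of genes near 0 in a group are thus not on the same scale in the 2 tables. Values that did not pass there included those of Grb10 (-3.67, adjusted p 0.0560), Txn1 (-0.04, adjusted p 0.931), Cpt1a (0.29, adjusted p 0.640) and Sqstm1 (0.37, adjusted p 0.331).

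To avoid repeated libraries, genes were chosen in the 6 guide tumours against sgGFP tumours 1 and 3 alone, which controls A and B do not repeat. The log2 values of sgGFP tumours 1 and 2 correlated at 0.963 and those of 3 and 4 at 0.971. The other sgGFP pairs correlated at 0.899 to 0.937. Control A repeats tumour 2 and B repeats tumour 4, so the 2 sets of controls resemble each other and may not be independent. Against these 2 controls, 1527 genes were separated higher (11.7%) and 1314 lower (10.1%), of which 1506 and 1313 were tested in the second table. In sgNrf2, 118 of the 1506 were called higher (7.84%) and 52 lower, and 67 of the 1313 were called lower (5.10%) and 11 higher, beside 1.91% higher and 2.64% lower of the 12905 genes tested in both tables. The median sgNrf2 change was -0.03 in each set, beside 0.04 over all these genes. Where the gap exceeded 1 the values were far apart. Of 112 such higher genes, 105 were above 0 in sgNrf2 and 49 were called higher and 2 lower (median 2.99), and of 73 such lower genes, 70 were below 0 and 24 were called lower and 0 higher (median -2.82). The sgNrf2 counts rest on 2 tumours and fell to 25 higher and 33 lower without sgNrf2 tumour B, to 30 and 39 without tumour A, and stood at 1850 and 1718 without control A and 472 higher without control B.

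At the edge of separation the members blended into the rest. Just inside, the lowest guide tumour and the highest control of Iqgap2 were at 1456.7 and 1456.1, and those of Cdkn2c at 231.3 and 231.2. Just outside, those of Bcap31 were at 1294.1 and 1295.0. On the lower side the highest guide tumour and the lowest control were at 240.83 and 240.89 for Hsd17b7, just inside, and at 324.4 and 324.2 for Adprh, just outside.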

How the data were processed

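RNA of liver tumours was sequenced. The deposited values are a signal: per the submitters' processing notes, HTSeq gene counts scaled by DESeq (mm10, with Picard also named), with no aligner or version in the sources used here. In the first table the authors had added 1 to every value. With that removed, 100% of values were whole multiples of a step particular to the library (tolerance 0.1 reads), which gave back the reads. Scaling differed between tables, so each was tested alone. Left out were 4 entries of the other table that named no gene. Promoter windows are RefSeq's (GRCm38.p6).

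The test was limma 3.58.1 (R 4.3.3, trend, two-sided) on log2 of deposited value + 1 for genes averaging 10 or more, with sgGFP, sgCul3 and sgKeap1 sharing 1 spread. Exact intervals hold counting error alone, as PCR reads are not independent molecules. The genes described follow a rule: Keap1, Cul3, Nfe2l2, the 12 widest gaps in each direction at a mean level of at least 100 (no predicted genes or pseudogenes), up to 6 genes per list, those nearest the edge, with the most reads or differing most between guides. Members, 43 lists and tests were chosen with earlier results of these data known. Alternatives included edgeR 4.0.16 and DESeq2 1.42.0 on recovered reads.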

Additional observations from a re-analysis of the deposited data

Results flagged for a closer look

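Values that stood far from the rest of their group by Dixon's criterion are given without explanation. Chance alone puts about 1 in 20 groups past it. In sgGFP tumour 2, Sqstm1 (2327) and Ptgr1 (260.1) were far above the other 3 controls. In sgGFP tumour 1, Akr1c14 (64.1), Ugp2 (853) and Ugt2b34 (764) were far below the other 3.

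With the 6 guide tumours as 1 group, sgCul3 tumour 3 was far below the other 5 for Gpx2 (5.47), Blvrb (741) and Grb10 (77.4) and far above them for Ces2c (36.8) and Sesn1 (147.8). In sgCul3 tumour 2 Mpo (38.1) was far above the others, and sgKeap1 tumour 2 was far above for Cyp7a1 (103) and at 0 for Slc4a9. In 3 cases the criterion was met by 1 or 2 reads where the rest of the group had 0, which shows no difference: Gpx2 in sgGFP tumour 2 (1.53), Cyp1a1 in sgGFP tumour 3 (0.886) and Rhag in sgCul3 tumour 2 (0.886).

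The 2 guides differed for Map2, where limma's test of sgKeap1 against sgCul3 gave -3.14 on the log2 scale (adjusted p 0.0147, all 3 sgKeap1 tumours below all 3 sgCul3 tumours).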

How the results depend on the processing

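The counts of 570 higher and 416 lower genes in both guides became 1105 and 947 by DESeq2, and 138 and 43 with sgGFP tumours 1 and 3 as the only controls, an alternative added after seeing the data. With 1 library left out they ranged from 257 to 882 and from 138 to 671, the lowest without sgGFP tumour 3 and the highest without sgCul3 tumour 3. Separated genes ranged with 1 library left out from 704 to 1140 higher and from 601 to 1100 lower. The 4 higher and 4 lower genes of sgKeap1 against sgCul3 became 64 and 40 by DESeq2, 2 higher with a mean of at least 50, and 0 to 6 and 0 to 4 with 1 library left out. For sgNrf2, 266 higher and 351 lower became 405 and 563 with quantile normalization and 1181 and 1458 by DESeq2. Equal totals gave 874 and 362 there and moved the median of all genes by 0.30, and that of sgKeap1 against sgCul3 by -0.23. With 1 library left out they ranged from 25 to 1850 and from 33 to 1718. No further 1 could be left off the second table, which holds zeros.

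The labels do not say that a tumour number marks a shared origin. Pairing was to be taken from the data only if all 9 same-numbered pairs of deviations correlated over 0.1, and 6 did, with 8 above 0. The correlations were 0.164, 0.175 and 0.314 (sgGFP and sgCul3), 0.199, 0.0425 and -0.0941 (sgGFP and sgKeap1) and 0.239, 0.518 and 0.098 (sgCul3 and sgKeap1). For sgGFP and sgCul3 alone all 3 pairs passed and each tumour correlated best with its own number. With the number as a replicate block, which drops sgGFP tumour 4, 689 genes were higher and 523 lower, Fth1 lost its call (adjusted p 0.0530) and Tkt gained one (0.0498), both by limma. With 1 library left out Alb ranged from -0.12 (without sgKeap1 tumour 2) to 0.84, and Hmox1 from -0.91 to 0.39 (without sgGFP tumour 1), with 0.30 without sgGFP tumour 2. Neither was called in any of these. Over all single genes and alternatives, 2205 results kept their direction and side of the threshold, 42 calls were lost and 11 were gained. Small differences, and genes near the level of 3 reads, are limited by the depth.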
